A study of Homo sapiens with 6 samples.

Results

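HOX genes encode homeodomain transcription factors and lie in 4 clusters, named A to D, in which the paralog number (1 to 13) gives a gene's place along the cluster. Rows of the deposited expression table were taken where the gene name was HOX, a cluster letter and a number with nothing after it. This gave 40 rows and, with a second HOXC5 row that had no fragment in any library left out, 39 genes of 58735 in the table. The HOXA cluster held 11 of them, HOXB 10, HOXC 9 and HOXD 9. They were measured in A375 cells, an established human melanoma line cultured from 1 tumour, after 6 h with CuB, short for cucurbitacin B in the series title, a compound made by plants such as cucumbers and squashes, or with its solvent DMSO, in 3 libraries each. The CuB dose is 0.2 µM by the protocol but 100 nM by the names of the libraries, so it is not certain. Both groups share the cell line, with no genetic change between them. The labels do not say whether the libraries came from separate cultures. The spread behind the p-values is that between these libraries and may be technical.

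In vertebrate embryos, low-numbered (anterior) HOX genes are switched on early and near the head, and high-numbered (posterior) genes later and toward the tail, in the order of the genes on the chromosome. HOX proteins bind DNA through the homeodomain, often beside PBX and MEIS proteins of the TALE class. Trithorax-type MLL complexes keep active HOX genes on and Polycomb complexes keep silent ones off. Cultured adult cells commonly keep part of the HOX pattern of their site of origin, and many tumours express further HOX genes.

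HOXB9 was the 1 gene called higher after CuB, while HOXC9, its paralog in the HOXC cluster, did not pass the test, so the homeobox of each is shown. Each is the 180-base coding-strand stretch that encodes the homeodomain, from the GENCODE 29 transcript on GRCh38, and capitals mark the 15 bases that code for tryptophan, phenylalanine, glutamine, asparagine and arginine in the DNA-recognition helix.
HOXB9, chr17:48622921-48623100, minus strand: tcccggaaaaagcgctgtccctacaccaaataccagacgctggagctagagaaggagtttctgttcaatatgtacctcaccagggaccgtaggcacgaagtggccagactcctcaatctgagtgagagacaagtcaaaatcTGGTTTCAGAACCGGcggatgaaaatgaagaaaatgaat
HOXC9, chr12:54002465-54002644, plus strand: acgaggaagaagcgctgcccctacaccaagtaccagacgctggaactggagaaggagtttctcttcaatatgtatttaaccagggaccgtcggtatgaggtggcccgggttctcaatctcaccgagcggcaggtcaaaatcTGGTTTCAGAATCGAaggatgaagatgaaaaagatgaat
The homeoboxes of HOXB9 and HOXC9 had the same base at 148 of 180 positions. Over all 741 pairs of the 39 homeoboxes identity ran from 47.8% to 91.1%, with a median of 81.7% for the 42 pairs with the same paralog number and 60.6% for the others. The longest stretch that HOXB9 shared with another HOX homeobox was 40 bases, with HOXD9.

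Expression is given in FPKM, which divides the fragments of a gene by its length and by the size of the library. Fragments on genes numbered 15502971, 16072462 and 16137093 in the CuB libraries and 14845976, 15797757 and 15116550 in the DMSO libraries. Among markers of the labelled cell type, SOX10, a neural crest factor, stood at 184 to 245 FPKM in CuB libraries and 162 to 256 FPKM in DMSO libraries, while the pigment genes MLANA, PMEL, TYR, TYRP1 and DCT averaged under 1 FPKM in both groups. That list holds 10 genes, of which 5 were tested, with PAX3 higher (log2 fold change 0.59) and S100B (-1.84) and ERBB3 lower, and it summed to 233 to 293 FPKM in CuB libraries and 259 to 352 FPKM in DMSO libraries. The fibroblast list (6 genes, 1 tested and lower) summed to 1.76 to 2.02 FPKM in CuB libraries and 3.80 to 4.31 FPKM in DMSO libraries, the leukocyte list (6 genes, 1 tested and lower) to 0.552 to 1.39 and 1.79 to 2.11 FPKM, and the endothelial list (4 genes, none tested) to 1.09 to 1.29 and 0.905 to 1.15 FPKM. The keratinocyte list (6 genes, 2 tested, both higher) summed to 25.9 to 28.5 FPKM in CuB libraries and 16.1 to 22.1 FPKM in DMSO libraries, most of it KRT10, with KRT1 listed at 0 in all 6. The calls of KRT10, KRT14 and LYZ were each lost with some libraries left out (adjusted p up to 0.0698, 0.108 and 0.0736 by limma). With TPM or quantile normalization 1 of the 2 tested keratinocyte genes was called higher, and with equal fragment totals 0. Beside the counts of all these lists, 22.9% of all tested genes were higher and 15.6% lower as deposited. In the bulk RNA of a culture, fewer cells that express a gene and less of its RNA per cell cannot be told apart, and the part of these markers in the HOX results was not tested.

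Summed over each of the 4 clusters, HOX genes had lower FPKM in CuB libraries than in DMSO libraries. FPKM is relative to the size of a library, so amounts of mRNA per cell were not measured. Of the 39 genes, 26 reached the minimum mean of 1 FPKM over the 6 libraries for the test. Of these 26, 19 were lower (73.1%) and 1 was higher (3.85%) after CuB at an adjusted p under 0.05 (limma on log2(FPKM + 1), Benjamini-Hochberg over 13273 genes), and 6 passed in neither direction. Over all genes tested, 15.6% were lower and 22.9% higher, 38.6% in either direction. These shares also stand beside the counts by cluster below. The median log2 fold change was -0.54 for the 26 HOX genes and 0.05 for all tested genes. DMSO replicate 2 was the highest DMSO library in 18 of the 26 genes and differed most from its group (chi-square over its degrees of freedom 19.9 and 27.4, against 2.93 between the other DMSO libraries). Without it 18 HOX genes were lower and 1 higher, with a median of -0.49. Among the CuB libraries, replicate 1 differed most (9.7 and 18.3, against 4.06 between replicates 2 and 3). Without CuB replicate 1, 14 HOX genes were lower and 1 higher, with a median of -0.54. CuB replicate 3 was the highest CuB library in 16 of the 26 genes. In 20 of the 26 genes all 3 CuB values lay below all 3 DMSO values, which held for 21.7% of all tested genes, and in 1 all lay above, which held for 29.8%, or 51.5% in either direction. At 2-fold or more on this scale, 3 HOX genes were lower, HOXB8, HOXA5 and HOXB5, against 2.37% of all tested genes. Leaving out CuB replicate 2 reduced the lower calls to 10, leaving out another library left between 14 and 18, and the 1 higher call was made in each of these fits. Quantile normalization ended the calls of HOXA4, HOXA6 and HOXD8 (adjusted p 0.0536 to 0.0620), testing without a filter on low genes ended those 3 and HOXB2, HOXB4 and HOXD9 (0.0508 to 0.0988), and a GC correction that of HOXA4 (0.0620).

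**Figure D1:**
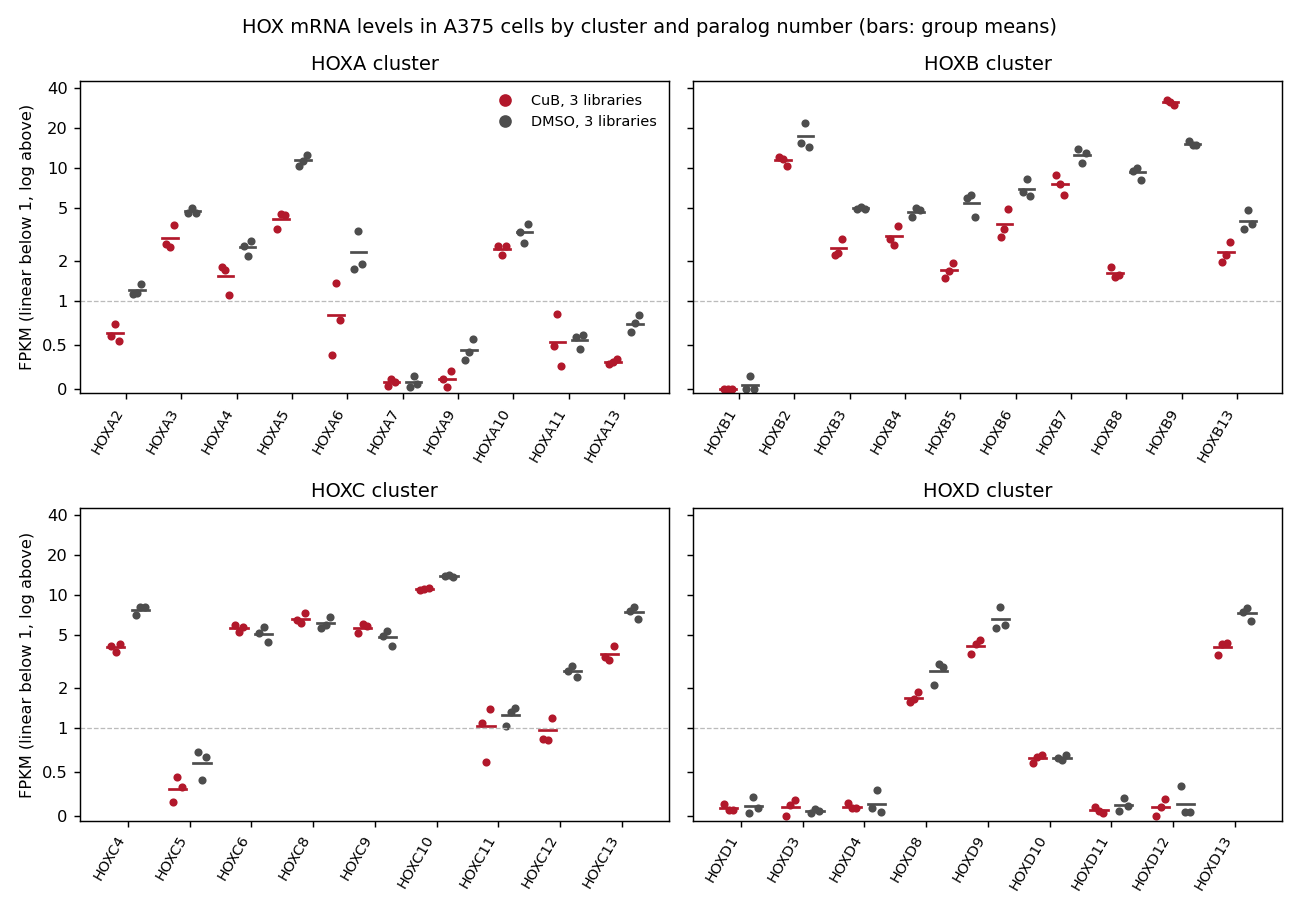
FPKM (linear below 1, log above) of HOX genes in the 3 CuB libraries (red) and the 3 DMSO libraries (grey), by cluster and in order of paralog number, with bars at the group means. HOXB9 is the 1 gene whose CuB points all lie above its DMSO points, and HOXB8 stands at 1.51 to 1.79 FPKM in CuB libraries and at 8.15 FPKM or more in DMSO libraries.

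The HOXB cluster spans chr17:48528526-48729178 on GRCh38 and lies on the minus strand, with HOXB1 at its anterior end and HOXB13 at its posterior end. Of its 10 genes 9 were tested, and 8 were lower and 1 higher after CuB. HOXB9, which shapes the ribs in mouse, had 32.1, 31.3 and 29.9 FPKM in CuB libraries, against 15.9, 14.8 and 14.8 FPKM in DMSO libraries. The groups did not overlap, and the ratio of the means was 2.05 (log2 fold change 0.99 ± 0.08 SE, adjusted p = 0.000136). HOXB8, which in mouse keeps myeloid progenitors dividing when it is overexpressed, had 1.79, 1.51 and 1.57 FPKM in CuB libraries, against 9.53, 10.006 and 8.15 FPKM in DMSO libraries. All CuB values were far under the lowest DMSO value, with a ratio of the means of 0.176 (log2 fold change -1.96 ± 0.10 SE, adjusted p = 2.84e-05). These genes start 11.42 kb apart, and neither shares an exonic base with another annotated gene. The counts behind them were 3528 fragments in CuB and 1848 in DMSO for HOXB9, and 146 and 897 for HOXB8. HOXB9 mRNA was 18.0, 20.8 and 19.1 times as abundant as HOXB8 mRNA in the CuB libraries, per length, against 1.66, 1.48 and 1.81 times in the DMSO libraries.

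Among the other HOXB genes, HOXB5, which sets the position of the shoulder girdle in mouse, had 1.49, 1.68 and 1.93 FPKM in CuB libraries, against 5.94, 6.22 and 4.24 FPKM in DMSO libraries (log2 fold change -1.25, adjusted p = 0.000887 by limma). HOXB3, a hindbrain gene, had 2.21, 2.30 and 2.92 FPKM in CuB libraries, against 4.86, 5.08 and 4.87 FPKM in DMSO libraries (log2 fold change -0.78, adjusted p = 0.00163). HOXB7, described as an activator of the growth factor gene FGF2 in melanoma cells, had 8.82, 7.61 and 6.22 FPKM in CuB libraries, against 13.9, 10.8 and 12.8 FPKM in DMSO libraries (log2 fold change -0.66, adjusted p = 0.0103). In each of these 3 genes the groups did not overlap, and each call was made with every library left out in turn. HOXB6 had 3.04, 3.43 and 4.93 FPKM with CuB, against 6.53, 8.16 and 6.17 FPKM with DMSO (log2 fold change -0.74, adjusted p = 0.0130). HOXB13, a gene of the prostate and the tail end of the embryo, had 1.95, 2.19 and 2.76 FPKM with CuB, against 3.44, 4.79 and 3.77 FPKM with DMSO (log2 fold change -0.60, adjusted p = 0.0157). HOXB13 lies 102.8 kb from HOXB9, measured start to start, on the far side of HOXB9 from HOXB8. HOXB2, a gene of hindbrain and facial nerve patterning, had 12.1, 11.7 and 10.3 FPKM with CuB, against 15.5, 21.9 and 14.3 FPKM with DMSO (log2 fold change -0.54, adjusted p = 0.0337). HOXB4, known for expanding blood stem cells, had 2.91, 2.61 and 3.67 FPKM with CuB, against 4.25, 5.01 and 4.77 FPKM with DMSO (log2 fold change -0.49, adjusted p = 0.0185). All 3 CuB values lay under all 3 DMSO values in these 4 genes as well. Without CuB replicate 2 these calls were lost, at adjusted p = 0.0524 for HOXB6, 0.0591 for HOXB13, 0.0839 for HOXB2 and 0.0741 for HOXB4. The HOXB2 call was also lost without CuB replicate 1 or 3 or DMSO replicate 1 (adjusted p 0.0575 to 0.0990), and the HOXB4 call without CuB replicate 1 (0.0518) or DMSO replicate 3 (0.0552).

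In the HOXA cluster (chr7:27092993-27200106, minus strand), 6 of 11 genes were tested, 4 of them lower and none higher. HOXA5, needed for the airways and lung in mouse, had 3.47, 4.45 and 4.39 FPKM in CuB libraries, against 10.3, 11.2 and 12.6 FPKM in DMSO libraries. The groups were far apart, with a ratio of the means of 0.362 (log2 fold change -1.28 ± 0.12 SE, adjusted p = 0.000298 by limma), and no exonic base of HOXA5 is shared with another gene. HOXA6 had 0.384, 1.36 and 0.781 FPKM with CuB, against 1.72, 3.33 and 1.89 FPKM with DMSO (log2 fold change -0.85, adjusted p = 0.0345), from 48 and 142 fragments. HOXA3, a gene of the thymus and parathyroid in mouse, had 2.66, 2.53 and 3.71 FPKM with CuB, against 4.60, 4.98 and 4.54 FPKM with DMSO (log2 fold change -0.54, adjusted p = 0.0163). HOXA4 had 1.78, 1.69 and 1.11 FPKM with CuB, against 2.57, 2.17 and 2.79 FPKM with DMSO (log2 fold change -0.48, adjusted p = 0.0358). The groups did not overlap in any of these 4 genes. The HOXA6 call was lost without CuB replicate 1 or 3 or DMSO replicate 2 or 3 (adjusted p 0.0566 to 0.0859), that of HOXA4 without CuB replicate 2 or 3 or DMSO replicate 1 or 3 (0.0703 to 0.106), and that of HOXA3 without CuB replicate 2 (0.0662) or DMSO replicate 1 (0.0504). HOXA10, a uterine patterning gene, missed the threshold with 2.57, 2.21 and 2.58 FPKM in CuB libraries, against 3.30, 2.74 and 3.75 FPKM in DMSO libraries (log2 fold change -0.30, 95% interval -0.58 to -0.02, adjusted p = 0.0881). Its groups did not overlap, and it passed without DMSO replicate 2 (adjusted p = 0.0285), with TPM (0.0444), with equal fragment totals (0.0290) and with the GC correction and replicate block together (0.0474).

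The HOXC cluster (chr12:53938765-54056030, plus strand) had 8 of 9 genes tested, of which 4 were lower and 4 passed in neither direction. The lower genes were HOXC4 at the anterior end, HOXC12 and HOXC13 at the posterior end, and HOXC10. HOXC12 had 0.868, 0.867 and 1.18 FPKM in CuB libraries, against 2.70, 2.93 and 2.42 FPKM in DMSO libraries (log2 fold change -0.90, adjusted p = 0.00148 by limma). HOXC13, a regulator of hair and nail keratin genes, had 3.41, 3.25 and 4.11 FPKM with CuB, against 7.64, 8.09 and 6.56 FPKM with DMSO (log2 fold change -0.88, adjusted p = 0.00135). HOXC4 had 4.09, 3.75 and 4.30 FPKM with CuB, against 7.005, 8.07 and 8.06 FPKM with DMSO (log2 fold change -0.79, adjusted p = 0.000914). In these 3 genes the groups did not overlap, and each call was made with every library left out in turn. HOXC10, a gene of lumbar motor neurons, had 10.8, 11.0 and 11.3 FPKM with CuB, against 13.9, 14.2 and 13.6 FPKM with DMSO (log2 fold change -0.30, adjusted p = 0.0152), a small difference between groups that each varied little. Its call was lost without CuB replicate 2 (adjusted p = 0.0730) or DMSO replicate 1 (0.0661).

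HOXC6, HOXC8 and HOXC9 had overlapping groups. HOXC9, which defines thoracic motor neurons in mouse, had 5.21, 6.01 and 5.82 FPKM in CuB libraries and 4.93, 5.38 and 4.12 FPKM in DMSO libraries (log2 fold change 0.20, 95% interval -0.05 to 0.46, adjusted p = 0.181 by limma), and passed with a GC correction (adjusted p = 0.0306). HOXC6 had 5.98, 5.22 and 5.78 FPKM with CuB and 5.21, 5.69 and 4.45 FPKM with DMSO (log2 fold change 0.13, 95% interval -0.12 to 0.38, adjusted p = 0.379). HOXC8, a gene of the lower neck and chest, had 6.50, 6.12 and 7.29 FPKM with CuB and 5.66, 5.92 and 6.78 FPKM with DMSO (log2 fold change 0.10, 95% interval -0.14 to 0.34, adjusted p = 0.459). The upper ends of the intervals of all 3 lay under the lower end for HOXB9, 0.81. With equal fragment totals in place of the authors' scaling the sign turned for HOXC6 (-0.0136) and HOXC8 (-0.0412). HOXC11, just inside the minimum for testing, had 1.08, 0.618 and 1.37 FPKM with CuB and 1.04, 1.31 and 1.41 FPKM with DMSO (log2 fold change -0.17, 95% interval -0.57 to 0.24, adjusted p = 0.469).

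The HOXD cluster (chr2:176092891-176190907, plus strand) had 3 of 9 genes tested, all 3 of them lower after CuB. HOXD13, the digit gene mutated in synpolydactyly, had 3.53, 4.26 and 4.33 FPKM in CuB libraries, against 7.45, 8.04 and 6.38 FPKM in DMSO libraries (log2 fold change -0.72, adjusted p = 0.00311 by limma), and kept its call with every library left out in turn. HOXD9 had 3.62, 4.24 and 4.61 FPKM with CuB, against 5.68, 8.13 and 5.93 FPKM with DMSO (log2 fold change -0.54, adjusted p = 0.0234). HOXD8 had 1.56, 1.64 and 1.86 FPKM with CuB, against 2.08, 3.04 and 2.88 FPKM with DMSO (log2 fold change -0.44, adjusted p = 0.0369). The groups did not overlap in any of the 3. The HOXD9 call was lost without CuB replicate 1 (adjusted p = 0.0670) or 2 (0.0688), and that of HOXD8 without CuB replicate 1, 2 or 3 or DMSO replicate 2 or 3 (0.0623 to 0.110).

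**Figure D2:**
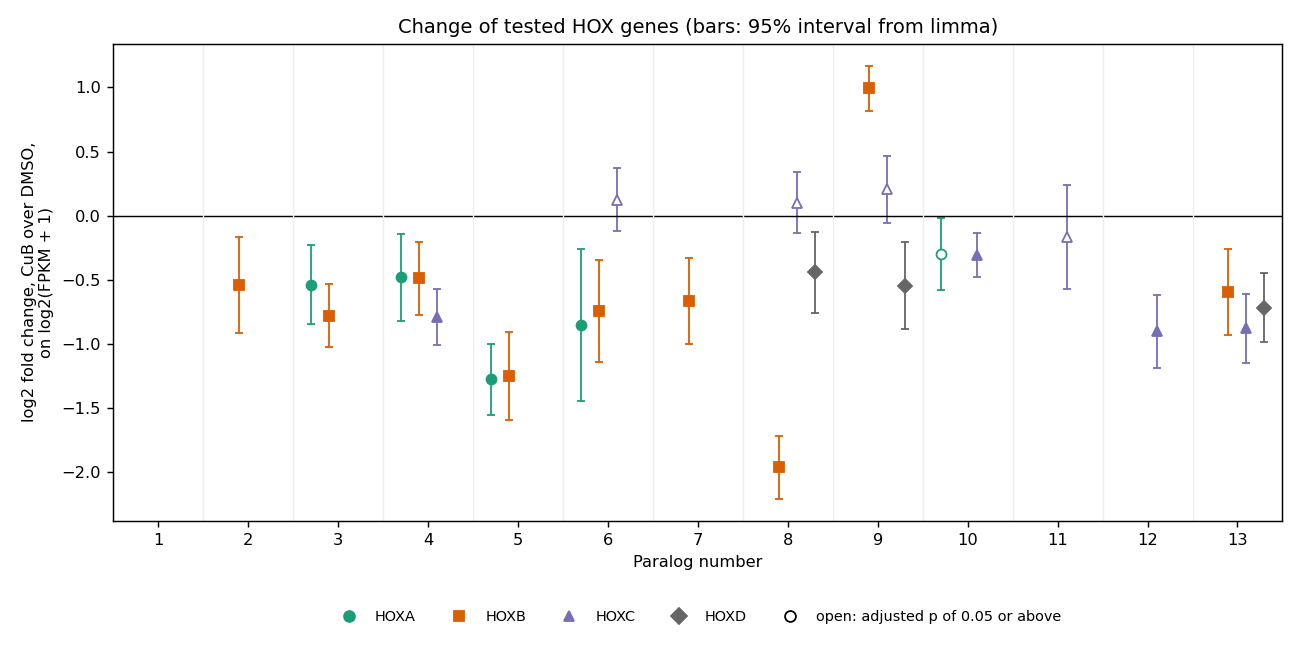
Log2 fold change, CuB over DMSO, on log2(FPKM + 1) for tested HOX genes against paralog number, with 95% intervals from limma; colour and shape give the cluster, and open points have an adjusted p of 0.05 or above. HOXB9 stands at 0.99, HOXB8 at -1.96, and the point estimates of all tested genes with numbers 2 to 5 and 10 to 13 lie below 0.

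Along the paralog axis, 10 of 12 tested genes with numbers 4 to 8 were lower, the middle of the clusters, against 3 of 4 with numbers 1 to 3 and 6 of 10 with numbers 9 to 13. The remaining genes passed in neither direction, except HOXB9. Over all tested genes 15.6% were lower and 22.9% higher. Among paralogs, both tested group 5 genes (HOXA5 and HOXB5) and all 3 tested group 4 genes (HOXA4, HOXB4 and HOXC4) were lower, as were all 3 tested group 13 genes (HOXB13, HOXC13 and HOXD13). In group 9, HOXB9 was higher and HOXD9 lower, and HOXC9 passed in neither direction. In group 8, HOXB8 and HOXD8 were lower, with log2 fold changes of -1.96 and -0.44, and HOXC8 passed in neither direction. Spearman's rho between paralog number and log2 fold change was 0.05 over the 26 genes, which share libraries and partly reads. For transcript GC content rho was -0.36, and for gene length 0.16. The tested HOX genes had a median GC content of 54.7% and length of 2481 bases, against 48.5% and 4442 bases for all tested genes. With the GC correction 18 HOX genes were lower and 2 higher, and the part of gene length was not tested. Differences between clusters or between position classes were not tested.

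Summed over a cluster, HOXA mRNA was 14.8, 15.9 and 15.9 FPKM in CuB libraries, against 27.7, 29.7 and 31.0 FPKM in DMSO libraries, a ratio of the means of 0.527. The HOXD sum was 11.0 ± 1.21 FPKM with CuB and 17.8 ± 2.53 FPKM with DMSO (SD, n = 3 each), a ratio of 0.619. The HOXC sum was 38.97 ± 2.22 FPKM with CuB and 49.6 ± 2.08 FPKM with DMSO, a ratio of 0.786. In each of these clusters all CuB sums lay below all DMSO sums. The HOXB sum, 65.0 ± 1.26 FPKM with CuB and 80.2 ± 6.48 FPKM with DMSO, had a ratio of 0.810, which became 0.521 (33.9 ± 0.697 and 65.0 ± 6.54 FPKM) with HOXB9 left out. HOXB9 made up 24.9, 24.3 and 22.3% of all HOX FPKM in the CuB libraries, against 9.18, 7.81 and 8.72% in the DMSO libraries. It also belongs to the class with numbers 9 to 13, whose sum was 68.1 ± 1.45 FPKM with CuB and 69.0 ± 3.68 FPKM with DMSO, with overlapping groups. Without HOXB9 that sum was 37.0 ± 2.60 FPKM with CuB and 53.9 ± 3.79 FPKM with DMSO, a ratio of 0.688, and the groups did not overlap. HOXB9 was left out of both sums because it was called higher in these same data. The lower ratios without it follow from that choice and test nothing. Numbers 4 to 8 summed to 42.7 ± 1.40 FPKM with CuB and 77.4 ± 2.67 FPKM with DMSO, a ratio of 0.552, and numbers 1 to 3 to 19.6 ± 0.493 and 30.6 ± 4.62 FPKM, a ratio of 0.640. All 39 genes together summed to 130.5 ± 2.72 FPKM with CuB and 177.1 ± 10.7 FPKM with DMSO, or 0.0486 to 0.0513% of all FPKM in CuB libraries and 0.0696 to 0.0775% in DMSO libraries.

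**Figure D3:**
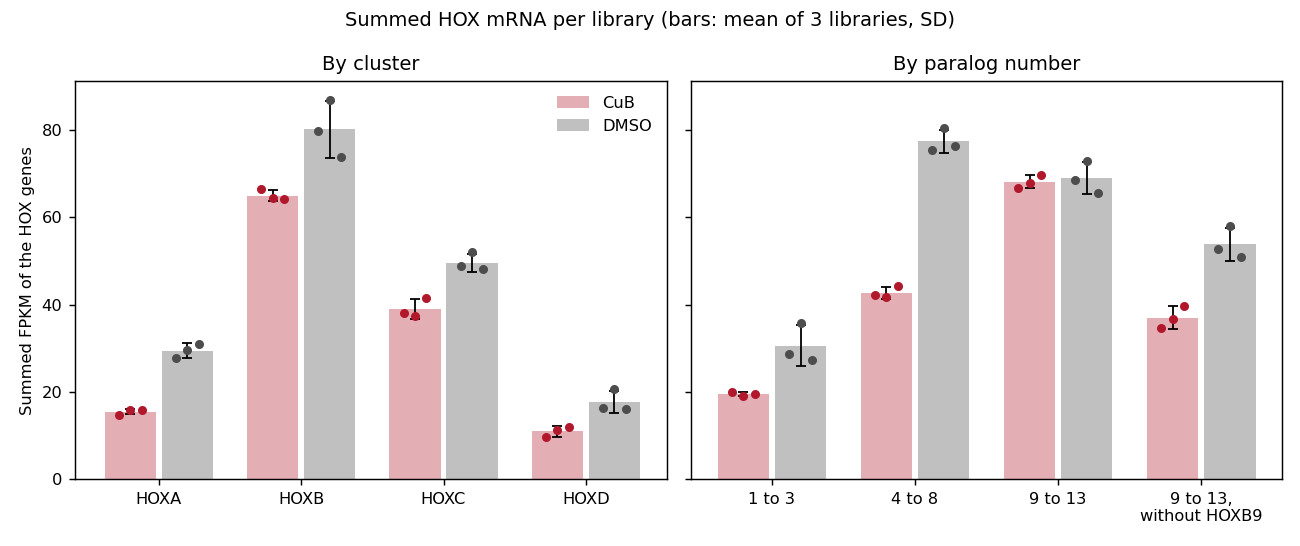
Summed FPKM of the HOX genes per library by cluster (left) and by paralog number (right); bars are means of 3 libraries with SD, CuB in red and DMSO in grey, and points are libraries. The CuB sums lie under the DMSO sums in all 4 clusters and overlap them for numbers 9 to 13, where HOXB9 is counted.

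The order of the levels, in FPKM and so per length, also differed between groups. In CuB libraries HOXB9 ranked first with a mean of 31.1 FPKM, followed by HOXB2 (11.4), HOXC10 (11.1) and HOXB7 (7.55). In DMSO libraries HOXB2 (17.2 FPKM) and HOXB9 (15.1 FPKM) led, and these neighbours in the order overlapped in their libraries, as did HOXC10 (13.9) and HOXB7 (12.5). HOXB2 and HOXC10 overlapped in the CuB libraries too. HOXB8 stood at place 22 in CuB and 6 in DMSO, and HOXA5 at 9 and 5. The HOXC genes that passed in neither direction moved up the order, HOXC8 to place 5 in CuB against 12 in DMSO, HOXC9 to 6 against 16 and HOXC6 to 7 against 14.

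The 13 genes under the minimum for testing averaged 0 to 0.658 FPKM in CuB libraries. In 3 of them the CuB values lay below all DMSO values, beside 21.7% of all tested genes, and in 10 the groups overlapped. That share covers only genes averaging 1 FPKM or more, and none was computed for lower genes. With a minimum mean of 0.3 FPKM, 31 HOX genes were tested and 21 were lower, the added ones being HOXA2 (adjusted p = 0.0228 by limma) and HOXA13 (0.0278). Of all 17854 genes past that minimum, 2430 were lower. HOXA2, just outside the minimum and a gene of the jaw and middle ear, had 0.603, 0.738 and 0.544 FPKM with CuB, against 1.11, 1.14 and 1.33 FPKM with DMSO. Its 68 and 139 fragments gave a ratio, scaled for library size, of 0.526 (exact 95% interval 0.388 to 0.708, counting error only). HOXA13, a gene of the limb ends and genital tract, had 69 fragments with CuB and 178 with DMSO, a ratio of 0.417 (0.311 to 0.554). HOXA9, known from acute myeloid leukaemia, had 15 and 63 fragments, a ratio of 0.256 (0.135 to 0.455). In the other 10 genes, HOXA7, HOXA11, HOXB1, HOXC5, HOXD1, HOXD3, HOXD4, HOXD10, HOXD11 and HOXD12, counts ran from 0 to 78 fragments with CuB and from 6 to 84 with DMSO. HOXB1 had 0 fragments with CuB and 6 with DMSO, and HOXD10 had 78 and 84, a ratio of 0.999 (0.724 to 1.38). Beside HOXA2, HOXA13 and HOXA9, the counting interval lay under 1 for HOXC5, with 25 and 51 fragments and a ratio of 0.527 (0.313 to 0.867), and for HOXB1 (0 to 0.914), whose groups overlapped between libraries. In the other 8 genes the interval included 1.

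HOX genes overlap one another and their antisense genes. With a kit that leaves strand unmarked, reads from overlapping exons cannot be assigned to 1 gene with certainty. Of the 26 tested genes 11 share no exonic base with another annotated gene, and 8 of these were lower and 1, HOXB9, higher. Of the 15 that share bases, 11 were lower. Beside both counts, 15.6% of all tested genes were lower and 22.9% higher. Shared bases made up 47.3% of HOXA4, 40.1% of HOXA6, 32.9% of HOXB6 and 26.3% of HOXA10, so these values are uncertain. HOXB6 shares 433 bases with HOXB3 on the same strand and 425 with HOXB-AS3 on the other. HOXC4 and HOXC6 share 484 bases.

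Non-coding genes inside the clusters were listed as 24, of which 6 were tested. HOXB-AS3, antisense in the HOXB5 and HOXB6 region, had 1.22, 1.23 and 1.33 FPKM in CuB libraries, against 5.48, 6.07 and 4.02 FPKM in DMSO libraries (log2 fold change -1.44, adjusted p = 0.000404 by limma). It shares 425 bases with HOXB6, 77 with HOXB3 and 73 with HOXB5 on the other strand. With strand unmarked, reads from those bases cannot be told apart, so its value is uncertain too. HAGLR, in the HOXD cluster, had 1.27, 1.29 and 1.53 FPKM with CuB, against 3.95, 3.17 and 3.96 FPKM with DMSO (log2 fold change -0.99, adjusted p = 0.000843). These 2 of the 6 tested were called lower with no overlap of groups, and 15.6% of all tested genes were called lower. The other 4 did not pass: HOXC-AS1 (-0.57, adjusted p = 0.0974), HOXB-AS1 (-0.30, adjusted p = 0.0776), HOTAIRM1 (-0.12, adjusted p = 0.416) and HAGLROS (-0.04, adjusted p = 0.841) are given by their log2 fold changes. HOXC-AS1 passed without CuB replicate 3 (adjusted p = 0.0279), and HOXB-AS1 with TPM (0.0405) and with equal fragment totals (0.0278). HOTAIR, the antisense RNA of the HOXC cluster, was under the minimum with 36 fragments in CuB and 109 in DMSO, a ratio of 0.355 (exact 95% interval 0.237 to 0.522), and is named here after its values were seen. Of the miRNA genes listed, MIR10A, MIR196A1 and MIR196B had no fragment in any library. MIR10A overlaps exons of HOXB4 and MIR196B exons of HOXA9 on the same strand, and both of these genes had fragments.

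In the list of MLL complexes and H3K27 demethylases, 6 of 13 tested genes were higher and 1 lower, with a median log2 fold change of 0.21. With TPM, quantile normalization or equal fragment totals 4 were higher and 1 lower (medians 0.11, 0.05 and 0.05). For this and the 2 Polycomb lists below, the shares over all tested genes were 22.9% higher and 15.6% lower as deposited. KDM6B, the demethylase that removes the Polycomb mark H3K27me3, had 65.6, 79.7 and 79.6 FPKM in CuB libraries, against 8.21, 11.7 and 7.32 FPKM in DMSO libraries, a ratio of the means of 8.27 (log2 fold change 2.93, adjusted p = 3.84e-05 by limma). KDM6A, which removes the same mark, had 12.9, 12.2 and 12.1 FPKM with CuB, against 7.96, 6.33 and 6.78 FPKM with DMSO (log2 fold change 0.74, adjusted p = 0.00146). DOT1L, a histone H3 methyltransferase, and RBBP5, a core MLL subunit, were higher by log2 fold changes of 0.77 and 0.65 (adjusted p = 0.00868 and 0.000787). Of 11 tested PRC2 genes, 5 were higher and 2 lower, with a median of 0.25. With TPM or equal fragment totals 3 were higher and 2 lower (medians 0.15 and 0.10), and with quantile normalization 2 and 2 (0.10). JARID2, which guides PRC2 to its targets, had 19.2, 19.5 and 19.4 FPKM with CuB, against 10.3, 10.2 and 9.77 FPKM with DMSO (log2 fold change 0.88, adjusted p = 0.000179). PHF1, an accessory subunit, had a log2 fold change of 0.61 (adjusted p = 0.00933), EZH2, the methyltransferase, of 0.53 (0.0109, and 0.0570 with quantile normalization) and RBBP4, a histone-binding subunit, of -0.41 (0.00914). Of 18 tested PRC1 genes, 3 were higher and 1 lower, with a median of 0.02, but quantile normalization gave 2 higher and 4 lower and equal fragment totals 1 higher and 4 lower. CBX6, a chromodomain subunit, had a log2 fold change of -0.85 (adjusted p = 0.00940). YAF2 (0.40, adjusted p = 0.0480) and PHC3 (0.36, adjusted p = 0.0418) lost their calls without any 1 of the 6 libraries (adjusted p 0.0524 to 0.129), and with TPM or equal fragment totals (0.0838 to 0.142).

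Of 5 tested TALE cofactors, 2 were higher and none lower, with a median log2 fold change of 0.05, but with TPM and with equal fragment totals none was higher and 2 were lower (medians -0.03 and -0.07), and with the GC correction 2 were higher and 2 lower. PBX3 had 7.15, 6.65 and 6.54 FPKM with CuB, against 5.61, 5.39 and 4.91 FPKM with DMSO (log2 fold change 0.30, adjusted p = 0.0287 by limma), and PBX4 had 1.91, 1.55 and 1.83 FPKM, against 1.20, 1.08 and 0.677 FPKM (0.49, adjusted p = 0.0337). Both calls depended on the scaling and on single libraries: with equal fragment totals the adjusted p was 0.170 for PBX3 and 0.0688 for PBX4, and leaving out CuB replicate 1, 2 or 3 or DMSO replicate 3 ended both (0.0642 to 0.0941), as did DMSO replicate 1 for PBX3 (0.0628). Retinoid receptors and caudal factors, upstream regulators of HOX genes in the embryo, were listed as 9, of which 3 averaged under 1 FPKM and 6 were tested. Of these 6, 1 was higher and 3 lower, with a median of -0.09, and all called genes are retinoid receptors. Beside both of these lists, 22.9% of all tested genes were higher and 15.6% lower as deposited. RXRG had 2.12, 1.89 and 2.48 FPKM with CuB, against 8.05, 7.91 and 7.94 FPKM with DMSO (log2 fold change -1.51, adjusted p = 6.20e-05). RARB had a log2 fold change of -1.01 (adjusted p = 0.00349), RARA of 0.79 (0.00794) and RARG of -0.40 (0.0347). The RARG call was lost without CuB replicate 1, 2 or 3 or DMSO replicate 1 (adjusted p 0.0647 to 0.117).

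**Figure D4:**
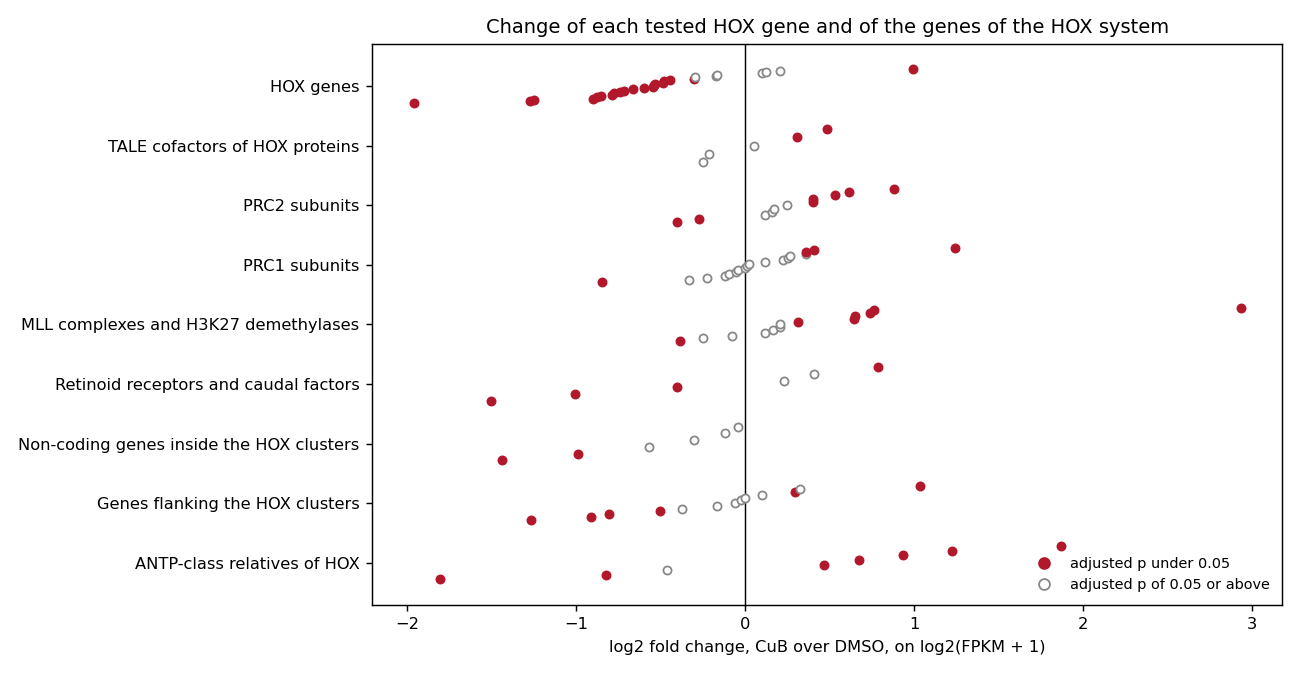
Log2 fold change, CuB over DMSO, on log2(FPKM + 1), 1 point per tested gene, for the HOX genes and the lists of cofactors, chromatin regulators, cluster RNAs, flanking genes and relatives; filled points have an adjusted p under 0.05. Of the HOX genes 19 of 26 are filled to the left of 0, against 4 of 13 of the genes flanking the clusters (6 with TPM or equal fragment totals and 7 with quantile normalization), and KDM6B is the point at 2.93.

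Of 13 tested genes flanking the clusters on the chromosome, 4 were lower and 2 higher, with a median log2 fold change of -0.06. With TPM or equal fragment totals 6 were lower and 1 higher, and with quantile normalization 7 and 1 (median -0.24). SNX10, beyond the HOXA cluster, had 12.6, 8.31 and 8.42 FPKM in CuB libraries, against 26.3, 20.1 and 27.7 FPKM in DMSO libraries (log2 fold change -1.27, adjusted p = 0.00217 by limma). NFE2L2, beyond the HOXD cluster and the gene of the antioxidant regulator NRF2, had 47.0, 36.0 and 31.8 FPKM with CuB, against 18.3, 14.9 and 21.1 FPKM with DMSO (log2 fold change 1.04, adjusted p = 0.00387). CALCOCO1 and CBX5, both beside the HOXC cluster, had log2 fold changes of -0.91 (adjusted p = 0.00127) and -0.81 (0.00108). ANTP-class homeobox genes outside the clusters, the relatives of HOX, were called in both directions, with 5 of 8 tested higher and 2 lower, and a median of 0.57. The shares over all tested genes, for the flanking genes and these relatives alike, were 22.9% higher and 15.6% lower. DLX2, a gene of the neural crest and jaw, had 19.2, 20.8 and 20.5 FPKM with CuB, against 4.43, 5.39 and 4.59 FPKM with DMSO (log2 fold change 1.87, adjusted p = 2.16e-05). MEOX2, a mesoderm and vascular gene, had 20.5, 23.3 and 23.9 FPKM with CuB, against 83.8, 74.2 and 86.3 FPKM with DMSO (log2 fold change -1.81, adjusted p = 2.84e-05). MSX2 and MSX1, effectors of BMP signalling in the crest, had log2 fold changes of 1.22 (adjusted p = 0.00117) and 0.93 (0.00897).

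RefSeq upstream windows were at hand for 20 of the 39 HOX genes, 26 distinct windows of 250 bases, and for 7 of the 26 tested genes. HOXD13 and HOXC4 are shown because, of the 9 genes whose lower call was made under every alternative tried, they have a window. The strands are those of the genes, on GRCh38.p14, and capitals mark CCAAT, which reads as ATTGG when it lies on the other strand, then CACGTG, which reads the same on both, and TATAAA, which in HOXD13 overlaps its own reverse form TTTATA.
HOXD13, chr2:176092471-176092720, plus strand: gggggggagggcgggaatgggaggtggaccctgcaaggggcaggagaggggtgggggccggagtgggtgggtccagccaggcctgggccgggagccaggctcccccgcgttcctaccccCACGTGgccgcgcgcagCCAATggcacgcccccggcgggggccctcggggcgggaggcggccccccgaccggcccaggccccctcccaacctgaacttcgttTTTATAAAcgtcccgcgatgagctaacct
HOXC4, chr12:54016638-54016887, plus strand: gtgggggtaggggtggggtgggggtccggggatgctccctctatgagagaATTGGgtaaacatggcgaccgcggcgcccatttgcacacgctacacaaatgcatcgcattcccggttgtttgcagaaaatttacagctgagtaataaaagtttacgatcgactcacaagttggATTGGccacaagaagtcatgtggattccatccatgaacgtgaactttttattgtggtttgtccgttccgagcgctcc
Counting both strands, CCAAT was in 17 of the 26 HOX windows (65.4%) and in 32.0% of all 35116 windows. CACGTG, an E-box, was in 8 (30.8%) and in 6.34% of all. TATAAA was in 5 (19.2%) and in 10.7% of all, and GGGCGG, a GC box, in 13 and in 42.6% of all. The AP-1 motif TGANTCA was in 0 of the 26 and in 6.57% of all windows. So were TGACGTCA, which 1.65% of all windows hold, and the nuclear receptor site AGGTCA, which 12.1% hold. TGATTNAT was in 2 (7.69%) and in 2.48% of all. Repeated windows were taken out of the HOX set but not out of the 35116, so the shares differ in basis. These are matches of letters in part of the genes, and nothing was drawn from them about binding.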

How the data were processed

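Polyadenylated RNA of A375 cells was sequenced, 3 libraries with CuB and 3 with DMSO, from a TruSeq RNA kit, per the labels' protocols. The authors deposited FPKM per gene, and the submitters' processing notes name GRCh38. No source used here names the aligner, counter or scaling behind the values. The identifiers and exon lengths of all 58735 genes matched GENCODE 29, which gave coordinates, overlaps, transcript GC content and homeoboxes.

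FPKM were turned back into fragments, whole to within 0.01 for 100% of non-zero values. The library size implied by the FPKM was 0.914 to 0.927 times the fragment total in CuB and 1.03 to 1.04 times in DMSO. Replicates differed by more than sampling noise (chi-square over its degrees of freedom, 2.93 to 27.4). Tests used limma 3.58.1 in R 4.3.3 with an intensity trend on log2(FPKM + 1), for the 13273 genes averaging 1 FPKM or more over the 6 libraries, without a block, with Benjamini-Hochberg adjustment at 0.05. Fold changes on this scale understate those of low genes. Ratios of fragments have exact 95% intervals for counting error only. The fit was also run on simulated data, drawn for each gene independently with 1 common dispersion (0.0122). Those data lack the library differences seen here, so that run does not show how the fit performs on these libraries. Plots were drawn with matplotlib 3.10.9 in Python 3.11.15.

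The HOX genes and the other lists were chosen with earlier results of these data known. The rule for names takes all tested HOX genes and all tested non-coding genes of the clusters, and of other lists up to 4 passing genes with the largest change, or, where fewer than 2 passed, the 2 tested genes highest in mean. Some results for single genes and sequences are left out of the text. Alternatives were other pseudocounts, filters, scalings, limma settings, a replicate block, a GC correction and each library left out.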

Additional observations from a re-analysis of the deposited data

How the results depend on the processing

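Across all alternatives run, HOXB9 was called higher and HOXB8, HOXA5, HOXB5, HOXB3, HOXB7, HOXC4, HOXC12, HOXC13 and HOXD13 lower wherever they passed the filter on low values. Over the 13273 genes past the filter, 5118 were called, 6422 at an unadjusted p under 0.05. Without a filter 4639 of 32824 genes were called, 2007 of them lower, and 14 of 39 HOX genes were lower. A minimum mean of 0.3 FPKM gave 5556 called genes of 17854, 2430 of them lower. It gave 21 lower HOX genes of 31, HOXA2 and HOXA13 added. A minimum mean of 5 FPKM, which leaves 14 HOX genes, gave 3250 called genes of 7713, 985 of them lower, and 10 lower HOX genes. With each library left out in turn, called genes ranged from 3262 to 5755, lower HOX calls from 10 to 18 (both lowest without CuB replicate 2) and the higher call stayed at 1. The GC correction gave 7780 called genes and 2 higher HOX genes, HOXB9 and HOXC9, and with the replicate block added it also gave 2. The cause was not tested. Called genes were higher in 59.5% of calls as deposited, 46.7% with TPM, 47.2% with quantile normalization and 39.3% with equal fragment totals, which moved the median of all genes from 0.05 to -0.08; against it HOXB9 was at 0.83. Reversed signs, none of them called, were HOXC8 (-0.0412) and HOXC6 (-0.0136) with equal fragment totals, and HAGLROS with quantile normalization (0.0535), without CuB replicate 1 (0.0761) and without DMSO replicate 2 (0.0102); its leave-one-out values ran from -0.161 to 0.0761.

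As log2 ratios of CuB over DMSO, the sums with TPM were -1.03 (HOXA), -0.407 (HOXB), -0.451 (HOXC), -0.961 (numbers 4 to 8) and -0.121 (9 to 13). With equal fragment totals they were -1.09, -0.469, -0.514, -1.02 and -0.184, and -0.809 for numbers 1 to 3. Leaving out 1 library gave -0.968 to -0.887 for HOXA, -0.359 to -0.242 for HOXB, -0.396 to -0.313 for HOXC, -0.762 to -0.568 for HOXD, -0.719 to -0.513 for numbers 1 to 3, -0.885 to -0.829 for 4 to 8 and -0.0534 to 0.0232 for 9 to 13.

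Same-numbered libraries did not deviate together in every pair (correlations 0.269, 0.118 and -0.357). A single deviating library can set such correlations, and CuB replicate 3 and DMSO replicate 2 reached 0.469. They therefore cannot decide whether the numbers pair the libraries. The replicate block left 4443 called genes and 17 lower and 1 higher HOX gene, without HOXC10 (adjusted p = 0.0632) and HOXA4 (0.0650). The edgeR test planned on recovered fragments was not run, since the files hold FPKM. The 13 HOX genes under the minimum rest on 0 to 78 fragments with CuB.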
